A study of Mus musculus with 4 samples.

Results

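The genes described here are 9 genes that mark microglia at rest, P2ry12, Tmem119, Sall1, Gpr34, Olfml3, Fcrls, Sparc, Cx3cr1 and Slc2a5. They were matched by exact symbol among the 31253 genes of the count matrices, and all 9 were present. The cells were live CD45+ immune cells sorted from tumor-bearing hemispheres on day 14 after CT2a glioma cells, a mouse glioma line, had been placed in the brain. WT mice (CaMKK2 WT) and CaMKK2 KO mice (CaMKK2 -/- in the germline) were on the C57Bl/6 background, were age-matched females and all carried the tumor. Since the deletion was in the germline, it was present in microglia, in blood-derived cells and in neurons alike. There were 4 mice per genotype, each marked by a hashtag antibody, and the 4 mice of a genotype shared 1 channel of the 10X platform, so genotype and channel cannot be told apart.

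Microglia are the resident macrophages of the brain, seeded before birth and kept apart from the blood-derived monocytes and macrophages that enter a tumor. In the healthy brain they hold a homeostatic program that depends on TGF-beta signals and on the transcription factor Sall1, and that gives way when microglia respond to injury, degeneration or a tumor. Its genes include the ADP receptor P2ry12, the lysophosphatidylserine receptor Gpr34, the fractalkine receptor Cx3cr1, the scavenger receptor-like protein Fcrls and the surface protein Tmem119. Others are the secreted proteins Sparc and Olfml3 and the fructose transporter Slc2a5 (GLUT5).

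Both libraries together kept 10685 cells, 5050 WT cells (median 12597 UMIs, unique molecular identifiers that count transcript molecules) and 5635 CaMKK2 KO cells (median 11457). Each mouse gave 1006 to 1665 cells and 11886048 to 20346223 UMIs. Of the barcodes, 42 occurred in both libraries. Camkk2, the deleted gene, stood at 31.1 ± 5.31 CPM (UMIs of a gene per 1000000 UMIs) over all cells of WT mice and 17.3 ± 4.15 CPM over those of CaMKK2 KO mice (SD, n = 4), with no overlap between the genotypes. Over all cells the log2 fold change of Camkk2 (CaMKK2 KO over WT) was -0.85. Its adjusted p was 0.0667 there and 0.0711 in microglia-like cells, against 0.0104 in TAM-like and 0.0267 in classical monocyte-like cells. These come from edgeR's quasi-likelihood test with Benjamini-Hochberg adjustment. Camkk2 was not at 0 in any CaMKK2 KO mouse. The method reads the 3' end of transcripts, and the counts do not show whether a transcript held the deleted part. Ptprc, which encodes the sort marker CD45, was found at 358 CPM or more in the microglia-like and TAM-like cells of every mouse.

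Cells were clustered without the 9 genes, and a cluster was named from other markers. The microglia-like cluster held 453 cells, 317 WT and 136 CaMKK2 KO, and was led by Crybb1, Nav3, Slco2b1, Adamts1 and Siglech. Cells resembling tumor-associated macrophages (TAM-like, 3802 cells) formed 2 clusters. The cluster led by Apoe, Pf4 and Spp1 held 1791 WT and 92 CaMKK2 KO cells. The cluster led by Ly6i, Gatm and Arg1 held 56 WT and 1863 CaMKK2 KO cells, so a TAM-like value comes mostly from different clusters in the 2 genotypes. A further cluster of 310 cells, led by Mmp12, Mt2 and Hmox1, had too few markers to be named. At a finer resolution it split into 162 cells and 148 cells, and the latter carried the 9 genes at levels between the TAM-like and the microglia-like cells. The finer cluster that held these 148 cells had a median of 3576 UMIs, against 12805 in the microglia-like cluster. It was led by Cxcl13, Apoc1 and Crybb1, and Crybb1 also led the microglia-like cluster. What these cells are was not tested. When the 9 genes were also used for clustering, the microglia-like cluster held 598 cells.

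The position of each gene was taken from GENCODE M21 on the mouse build GRCm38, which is also called mm10. P2ry12 (ENSMUSG00000036353) lies on the minus strand of chromosome 3 from 59216272 to 59262871, inside the gene Med12l on the plus strand. Fcrls (ENSMUSG00000015852) lies on the minus strand of chromosome 3 from 87250758 to 87263738. Olfml3 (ENSMUSG00000027848) lies on the minus strand of chromosome 3 from 103722222 to 103738001. Gpr34 (ENSMUSG00000040229) lies on chromosome X from 13632089 to 13640858 within Cask, which runs on the other strand. Tmem119 (ENSMUSG00000054675), on the minus strand of chromosome 5 from 113793729 to 113800516, shares its chromosome with Camkk2, which spans 122731170 to 122779409. Slc2a5 (ENSMUSG00000028976) lies on the plus strand of chromosome 4 from 150119283 to 150144169.

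RefSeq promoter windows on GRCm38.p6 were at hand for 7 of the 9 genes, and the 250 bases before each start were searched for GGAAGT, the core of the motif bound by the macrophage factor PU.1 (Spi1), on both strands. P2ry12, Fcrls and 1 of the 3 windows of Sall1 held it, while the windows of Olfml3, Slc2a5, Cx3cr1 and Sparc did not. Of all 32851 windows of this length, 19.7% held it. P2ry12 and Olfml3 are shown because they share a cell class and differ in this motif. The P2ry12 window is chr3:59262986-59263235 and the Olfml3 window chr3:103738002-103738251, both on the minus strand, 5′ to 3′, with the motif in capitals.
P2ry12: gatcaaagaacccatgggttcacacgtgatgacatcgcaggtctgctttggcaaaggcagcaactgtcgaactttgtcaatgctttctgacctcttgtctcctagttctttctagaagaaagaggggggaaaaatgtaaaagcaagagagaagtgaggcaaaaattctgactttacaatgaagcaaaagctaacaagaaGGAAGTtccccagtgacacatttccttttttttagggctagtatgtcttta
Olfml3: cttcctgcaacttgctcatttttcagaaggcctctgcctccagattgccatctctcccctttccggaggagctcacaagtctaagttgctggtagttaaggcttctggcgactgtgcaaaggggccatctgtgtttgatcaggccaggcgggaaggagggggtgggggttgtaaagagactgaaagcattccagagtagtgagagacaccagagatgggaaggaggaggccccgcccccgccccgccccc
The match is a description of these letters, and binding was not measured.

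All 9 genes had their highest mean level in the microglia-like cells, where 1212 to 15739 UMIs were counted for each gene other than Slc2a5, which had 320. Since the genes belong to a known microglia program and the clusters were made from the same cells, these levels are a description without a test. Sall1, the transcription factor, stood at 193 ± 23.1 CPM in microglia-like and 0.779 ± 0.437 CPM in TAM-like cells (SD, n = 8 mice). Sparc, a secreted matrix-associated protein, was at 2024 ± 511 CPM in microglia-like and 12.5 ± 6.87 CPM in TAM-like cells. Both were higher in microglia-like than in TAM-like cells in 8 of 8 mice.

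**Figure D1:**
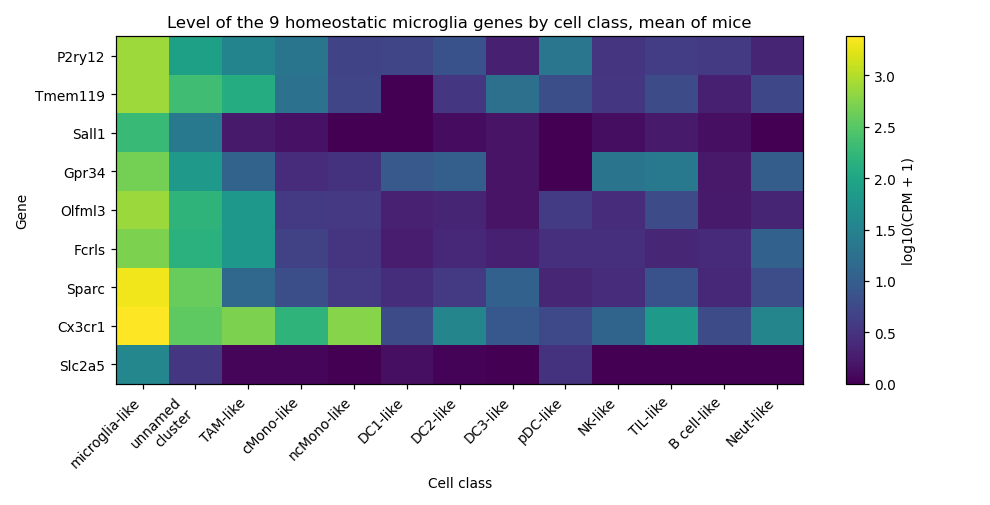
Mean level of each gene (rows) in each cell class (columns) as log10(CPM + 1), over all mice with cells of that class. The microglia-like column is the highest in every row, and Cx3cr1 also stands high in ncMono-like cells (590 CPM) and TAM-like cells (523 CPM).

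The receptors were less sharply divided. P2ry12 was at 764 ± 247 CPM in microglia-like and 32.1 ± 15.0 CPM in TAM-like cells. Gpr34 was at 475 ± 154 CPM in microglia-like cells, and its next named classes were TIL-like cells (tumor-infiltrating T cells, 22.0 ± 8.59 CPM) and NK-like cells (19.1 ± 7.21 CPM), which did not differ beyond their spread. Cx3cr1 was at 2400 ± 301 CPM in microglia-like cells, 590 ± 153 CPM in ncMono-like cells (non-classical monocytes, which are known to carry this receptor) and 523 ± 203 CPM in TAM-like cells. The last 2 values overlapped. Classical monocytes (cMono-like cells) had 157 ± 47.3 CPM of Cx3cr1.

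Tmem119 was at 768 ± 253 CPM in microglia-like and 123 ± 54.3 CPM in TAM-like cells, and at 17.0 ± 11.9 CPM in cMono-like cells. Olfml3 was at 748 ± 419 CPM in microglia-like and 61.9 ± 48.5 CPM in TAM-like cells. Fcrls was at 520 ± 582 CPM in microglia-like and 62.4 ± 78.0 CPM in TAM-like cells, and these wide spreads join the 2 genotypes. Slc2a5 was at 35.3 ± 38.8 CPM in microglia-like cells, and 93.6% of all its UMIs were counted there. In B cell-like cells, which should lack these genes, each of the 9 genes had 0 to 8 UMIs over all mice, and their mean levels were at most 4.94 CPM.

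Because TAM-like cells were far more numerous, they held much of the total signal of some genes. They carried 60.0% of all Cx3cr1 UMIs, 57.6% of Tmem119, 44.4% of Fcrls and 40.8% of Olfml3. For Sall1, Sparc and Slc2a5 the microglia-like cells carried 90.4%, 86.4% and 93.6% of the UMIs. A value over all sorted cells thus came mostly from TAM-like cells for Cx3cr1 and Tmem119 and mostly from microglia-like cells for Sall1, Sparc and Slc2a5.

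Within the unnamed cluster, the 148 cells set apart at the finer resolution had 171 ± 71.8 CPM of P2ry12, 47.7 ± 29.2 CPM of Sall1 and 816 ± 392 CPM of Sparc (SD, n = 8). The 162 cells had 10.4 ± 9.42 CPM of P2ry12, 1.19 ± 1.74 CPM of Sall1 and 22.6 ± 14.5 CPM of Sparc (SD, n = 7 mice with such cells). The cluster entered the genotype comparison over all cells below, but not that of the microglia-like or the TAM-like cells. Adding it to the TAM-like cells left the number of the 9 genes that passed there at 2.

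Detection was compared in cells thinned to 3000 UMIs each, which left out 1 of the 453 microglia-like, 25 TAM-like and 35 B cell-like cells. A microglia-like cell carried UMIs of 6 of the 9 genes at the median, and 0 of 452 cells lacked all of them. TAM-like cells carried 1 gene at the median, and 27.5% of them carried none. In B cell-like cells 94.9% carried none. Their median depths before thinning were 12672 UMIs in WT and 13297 in CaMKK2 KO microglia-like cells, and 3553 and 4990 in B cell-like cells. In microglia-like cells a mean of 6.41 ± 0.608 of the 9 genes was found per cell in WT and 5.61 ± 0.642 in CaMKK2 KO mice. In TAM-like cells it was 1.68 ± 0.194 and 0.799 ± 0.292. Fcrls, Olfml3 and Slc2a5 had the lowest log2 fold changes in these same microglia-like cells (below). Without these 3 genes the mean of the other 6 per microglia-like cell was 4.49 over WT and 4.91 over CaMKK2 KO cells. Over the same pooled cells the mean of all 9 was 6.18 in WT and 5.68 in CaMKK2 KO, so the direction turned. Since the 3 were picked from these data, leaving them out had to shift the difference that way, and this is no test. In TAM-like cells the mean of the other 6 was 1.25 and 0.768. The cells of all mice were pooled for the means of the other 6, and WT mouse 1 gave 157 of the 317 WT microglia-like cells before thinning.

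The share of microglia-like cells was 15.6%, 7.30%, 1.90% and 2.72% of the immune cells of the 4 WT mice. It was 2.22%, 1.44%, 3.38% and 2.77% in the 4 CaMKK2 KO mice. The genotypes overlapped, and 2 WT mice stood above all others. The difference was -4.43 percentage points (CaMKK2 KO minus WT, two-sided exact permutation test, p = 0.286, where 0.0286 is the smallest p that 4 mice against 4 allow). Without WT mouse 1 it was -1.52 points. With microglia taken by UMIs of marker genes instead of clusters it was -7.56 points (exact permutation p = 0.0571).

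Whether loss of CaMKK2 changed the homeostatic genes within microglia was asked by summing the UMIs of the microglia-like cells of each mouse, which gave 353728 to 2156133 UMIs from 24 to 157 cells. All 9 genes were tested with edgeR's quasi-likelihood test, and adjusted p-values below are from this test with Benjamini-Hochberg adjustment over all genes tested. Of the 9 genes 2 passed an adjusted p of 0.05, Fcrls and Slc2a5, both lower in CaMKK2 KO mice, against 1.43% of all 4688 genes. The other 7 genes did not pass.

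Fcrls, the Fc receptor-like scavenger receptor, was at 590, 1322, 842 and 1314 CPM in the microglia-like cells of the 4 WT mice. In the 4 CaMKK2 KO mice it was at 28.0, 0, 53.9 and 11.3 CPM, from 11, 0, 43 and 4 UMIs. The genotypes did not overlap. The log2 fold change (CaMKK2 KO over WT) was -5.24 with a standard error of 0.51 (adjusted p = 4.77e-05, edgeR). It was between -6.30 and -4.86 with any single mouse left out, and Fcrls passed each time. Of the cells thinned to 3000 UMIs, 81.8% ± 12 in WT and 7.09% ± 5.27 in CaMKK2 KO mice had a UMI of Fcrls. The B cell-like profile of each mouse, scaled to the class total, was also subtracted from the counts to stand for free RNA. This takes away RNA that B cells make themselves as well, and 1673 genes were left to test in place of 4688. Fcrls, with 4 UMIs in all B cell-like cells, then had a log2 fold change of -5.36 and an adjusted p of 0.0522 (edgeR). Of all genes left in that setting 8 were called.

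Slc2a5, the fructose transporter, was at 45.5, 115, 35.9 and 60.1 CPM in WT mice and at 10.2, 0, 16.3 and 0 CPM in CaMKK2 KO mice. A count of 0 allowed up to 6.80 and 8.48 CPM in the second and the fourth CaMKK2 KO mouse, taken as 3 UMIs per mouse and covering counting error only. All CaMKK2 KO mice lay below all WT mice, at 17 UMIs in total against 303. The log2 fold change was -3.00 with a standard error of 0.58 (adjusted p = 0.0175, edgeR). The log2 fold change was -4.26 without CaMKK2 KO mouse 3 and -2.64 without CaMKK2 KO mouse 2, the extremes with a mouse left out. The adjusted p rose to 0.0533 without CaMKK2 KO mouse 1, to 0.0624 without CaMKK2 KO mouse 4 and to 0.312 with the B cell-like level subtracted, and DESeq2 gave no adjusted p for it. Without WT mouse 2 the gene fell under the limit of 200 UMIs and was not tested. Without thinning, 5.15% of the 136 CaMKK2 KO and 48.6% of the 317 WT microglia-like cells had a UMI of Slc2a5. At 3000 UMIs per cell it was 0 of 136 and 14.9% of 316 cells, and at 1500 UMIs 2.21% and 10.7%, so the thinned shares of CaMKK2 KO cells rest on 3 cells or fewer. By mouse the WT shares at 3000 UMIs were 12.1%, 24.7%, 0% and 10.8%. WT mouse 3 was thus level with the CaMKK2 KO mice at that depth.

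Olfml3, a secreted glycoprotein, was at 475, 1398, 1137 and 1099 CPM in WT mice and at 473, 236, 407 and 758 CPM in CaMKK2 KO mice. The first WT mouse lay among the CaMKK2 KO mice and the other 3 lay above them. The log2 fold change was -1.14 with a standard error of 0.34 and did not pass (adjusted p = 0.109, edgeR). Without WT mouse 1 it was -1.38 (adjusted p = 0.0218).

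P2ry12, which guides the processes of microglia toward ADP, was at 509, 824, 469 and 705 CPM in WT mice and at 1090, 530, 952 and 1032 CPM in CaMKK2 KO mice. Of the CaMKK2 KO mice 3 were above every WT mouse and the second was within their range. The log2 fold change was 0.52 with a standard error of 0.23 (adjusted p = 0.264, edgeR). Tmem119 was at 513, 798, 693 and 679 CPM in WT mice and at 1022, 510, 680 and 1247 CPM in CaMKK2 KO mice, giving a log2 fold change of 0.36 with a standard error of 0.24 (adjusted p = 0.464, edgeR). Neither gene passed the test.

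The remaining genes lay close to equal levels. Sall1 was at 171 to 198 CPM in WT mice and at 170 to 229 CPM in CaMKK2 KO mice, with a log2 fold change of 0.13 and a standard error of 0.15. Gpr34 was at 285 to 675 CPM and 231 to 615 CPM, with a log2 fold change of 0.07 and a standard error of 0.29. Cx3cr1 was at 2305 to 2661 CPM and 1736 to 2658 CPM, with a log2 fold change of -0.08 and a standard error of 0.15. Sparc was at 1221 to 2435 CPM and 1204 to 2417 CPM, with a log2 fold change of -0.04 and a standard error of 0.24. The adjusted p of these 4 genes was 0.711 to 0.956 (edgeR), and the sign of each changed under at least 1 other setting. The median log2 fold change over all genes tested was -0.12, which TMM scaling moved to -0.002, and this turned the split of called genes from 29 higher and 38 lower to 40 higher and 29 lower.

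**Figure D2:**
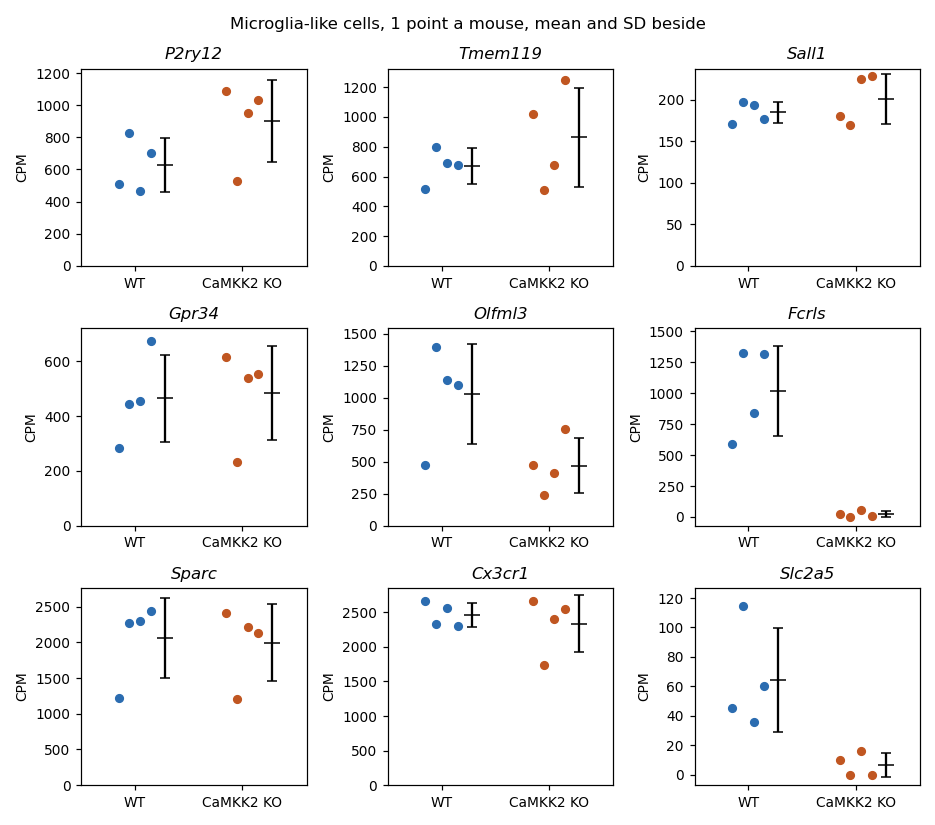
Level of each gene in the microglia-like cells of each mouse (CPM, 1 point per mouse), with the mean and SD of the 4 mice beside the points. The Fcrls and Slc2a5 points of CaMKK2 KO mice all lie below those of WT mice, at 53.9 and 16.3 CPM or less, and the other 7 genes overlap. The share of all genes whose genotypes do not overlap is not given here, so this split is a description only.

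Markers of other brain cells were read in the microglia-like cells. The 9 markers of border-associated macrophages, which line the vessels and meninges, summed to 251 to 478 CPM in WT mice and at 122 to 226 CPM in CaMKK2 KO microglia-like cells. Of the 9 markers Lyve1 and Cd163 had 0 UMIs there and the other 7 were read. Stab1 gave most of the sum, with 1527 UMIs. Mrc1 was at 26.0 ± 17.0 CPM in WT mice and at 2.83 ± 4.14 CPM in CaMKK2 KO mice, and Folr2 at 8.67 ± 6.73 and 1.51 ± 1.84 CPM. The 15 markers of neurons, glia, vessels and tumor summed to 119 to 180 CPM in WT mice and at 177 to 311 CPM in CaMKK2 KO mice. Of these 15 genes 8 had 0 UMIs, Gfap, Snap25 and Sox2 among them, and Slc1a3 gave the largest part. The part of these cells in the differences above was not tested.

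TAM-like cells were compared in the same way, from 4750086 to 9503172 UMIs per mouse. Of the 9 genes 7 had at least 200 UMIs in the class and were tested, while Sall1 (47 UMIs) and Slc2a5 (8 UMIs, all in WT mice) were not. Olfml3 and Fcrls passed, both lower in CaMKK2 KO mice, against 3.31% of all 9572 genes. Fcrls reached 200 UMIs only through WT mice, with 3813 UMIs there and 142 in CaMKK2 KO mice. Olfml3 had 521 UMIs in CaMKK2 KO mice. The log2 fold changes of the 7 tested genes were all below 0, with a median of -0.89, beside a median of -0.09 over all genes tested. TMM scaling turned the split of called genes from 129 higher and 188 lower to 169 higher and 129 lower. The other 5 genes did not pass.

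Olfml3 was at 95.6, 119, 111 and 101 CPM over WT TAM-like cells and at 24.7, 11.7, 15.3 and 16.8 CPM over CaMKK2 KO TAM-like cells, mouse by mouse. The genotypes did not overlap. The log2 fold change was -2.63 with a standard error of 0.20 (adjusted p = 0.000247, edgeR). Fcrls was at 227, 68.9, 87.6 and 99.1 CPM in WT mice and at 6.83, 1.18, 8.20 and 0.421 CPM in CaMKK2 KO mice, giving a log2 fold change of -4.74 with a standard error of 0.65 (adjusted p = 0.00553, edgeR). The genotypes did not overlap, and the highest WT mouse was the one with the largest share of microglia-like cells. In TAM-like cells thinned to 3000 UMIs, that mouse had the highest share of cells with P2ry12, Tmem119 and Gpr34 (16.5%, 42.2% and 7.07%). Its share with Sparc was the lowest of the WT mice, at 1.28% against 3.87% to 5.79%. Whether its microglia-like cells had a part in its TAM-like Fcrls level was not tested. With the B cell-like level subtracted the log2 fold change of Fcrls was -4.80 and its adjusted p 0.159 (edgeR). That setting left 5913 genes to test, and 15 of them were called.

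Since the 2 TAM-like clusters divided by genotype, their levels are given apart, pooled over the cells of a genotype and without a test. In the Apoe-led cluster Olfml3 was at 107 CPM over WT cells and 24.4 CPM over the 92 CaMKK2 KO cells. In the Ly6i-led cluster it was at 49.2 CPM over the 56 WT cells and 17.1 CPM over CaMKK2 KO cells. Fcrls was at 127 and 22.5 CPM in the Apoe-led cluster and at 23.4 and 3.78 CPM in the Ly6i-led cluster, in the same order. In both clusters the CaMKK2 KO level of both genes was the lower one, from as few as 20 UMIs of Fcrls in the WT cells of the Ly6i-led cluster. Cx3cr1 was at 683 and 602 CPM in the Apoe-led and at 323 and 391 CPM in the Ly6i-led cluster. In the Ly6i-led cluster P2ry12 (9.37 CPM over WT and 21.8 CPM over CaMKK2 KO cells), Tmem119 (66.8 and 89.8 CPM) and Gpr34 (2.34 and 8.20 CPM) were also higher over CaMKK2 KO cells, with 8, 57 and 2 UMIs behind the WT values. By mouse the genotypes overlapped there for Cx3cr1 and for each of these genes. Tmem119 was at 49.4 to 286 CPM in WT and at 43.7 to 145 CPM in CaMKK2 KO mice. In the Apoe-led cluster P2ry12 was at 43.7 and 28.3 CPM, Tmem119 at 164 and 128 CPM and Gpr34 at 13.8 and 14.8 CPM.

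The other 5 genes had lower means in the TAM-like cells of CaMKK2 KO mice without passing. Within the Ly6i-led cluster 4 of them were the higher ones over the pooled CaMKK2 KO cells. P2ry12 was at 61.6, 41.2, 30.1 and 36.5 CPM in WT mice and at 17.9, 16.6, 32.9 and 19.6 CPM in CaMKK2 KO mice, giving a log2 fold change of -0.96 with a standard error of 0.27 (adjusted p = 0.0822, edgeR). Tmem119 was at 128 to 212 CPM in WT mice and at 46.5 to 145 CPM in CaMKK2 KO mice (log2 fold change -0.89, adjusted p = 0.130, edgeR). Cx3cr1 was at 628 to 716 CPM in WT mice and at 160 to 573 CPM in CaMKK2 KO mice, which did not overlap (log2 fold change -0.81, adjusted p = 0.178, edgeR). With CaMKK2 KO mouse 3 left out, P2ry12 (adjusted p = 0.0307) and Tmem119 (adjusted p = 0.0310) passed as well in edgeR, and DESeq2 called P2ry12 with all mice. For Sparc and Gpr34 the log2 fold changes were -0.85 and -0.66 (adjusted p = 0.179 and 0.409, edgeR).

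**Figure D3:**
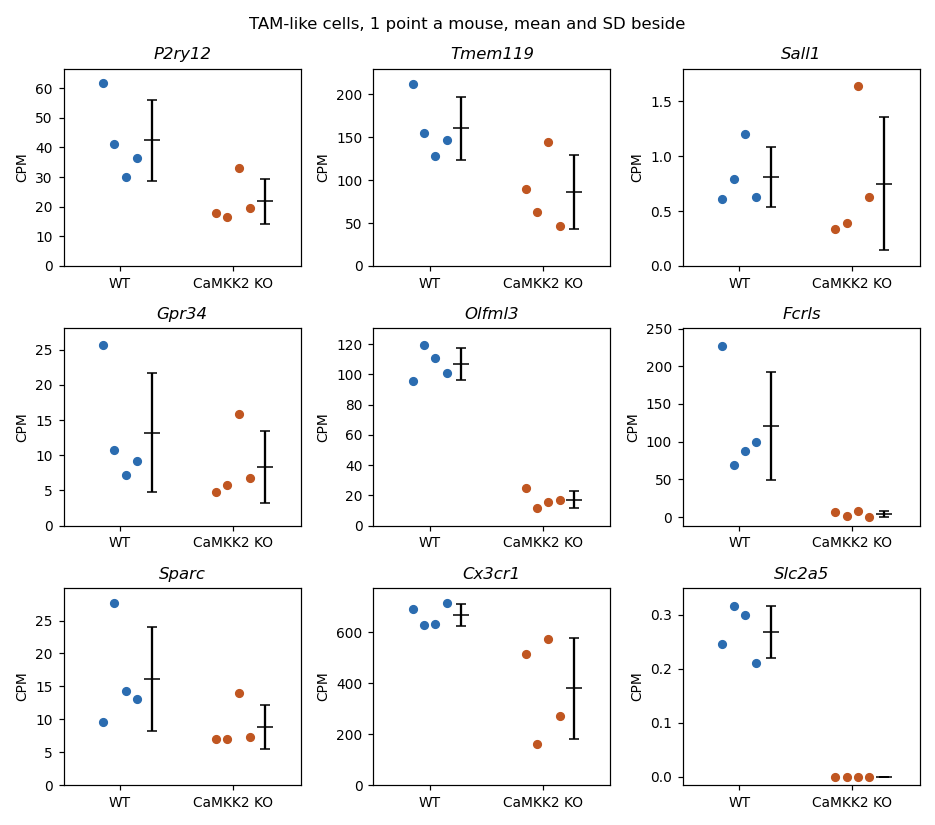
Level of each gene in the TAM-like cells of each mouse (CPM, 1 point per mouse), with the mean and SD of the 4 mice beside the points. Olfml3 lies at 95.6 CPM or more in every WT mouse and 24.7 CPM or less in every CaMKK2 KO mouse, while Sall1 and Slc2a5 are at most 1.64 and 0.316 CPM in any mouse.

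The difference between the genotype effects of the 2 classes was tested itself, in edgeR with the mouse as a block, for the 7 genes that both classes allowed. None of the 7 passed, against 0.216% of all 4635 genes, while 5 of them had an unadjusted p under 0.05. Over all 4635 genes 630 had an unadjusted p under 0.05. DESeq2 called 4 of the 7, Olfml3, P2ry12, Cx3cr1 and Tmem119, and 55 of all 4635 genes. When CaMKK2 KO mouse 3 was left out, edgeR called these 4 genes as well, and 73 of all 4213 genes tested. Olfml3 (microglia-like less TAM-like effect, 1.53 with a standard error of 0.31, adjusted p = 0.0635) and P2ry12 (1.47 with a standard error of 0.31, adjusted p = 0.0669) came closest in edgeR. Fcrls, at -0.72 with a standard error of 0.73, had the smallest such difference beside its standard error. A difference between the classes is thus not shown for any of these genes by the edgeR test.

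**Figure D4:**
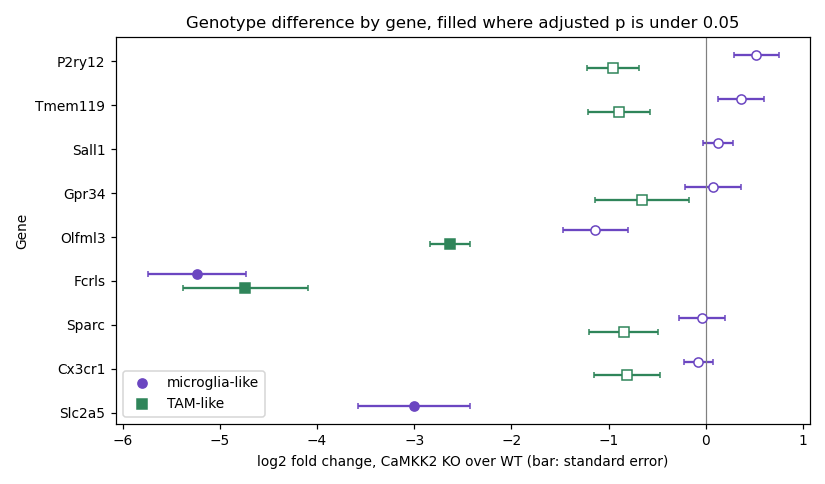
Log2 fold change of each gene, CaMKK2 KO over WT, in microglia-like cells (circles) and TAM-like cells (squares), with the standard error as a bar and filled symbols where the adjusted p was under 0.05. Fcrls lies near -5 in both classes, and P2ry12 lies at 0.52 in microglia-like and -0.96 in TAM-like cells.

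Over all sorted cells of a mouse, where fewer cells of a type and less RNA per cell cannot be told apart, Fcrls and Olfml3 again passed, 2 of the 9 genes against 1.56% of all 11275. Fcrls was at 132 ± 74.8 CPM in WT mice and at 3.05 ± 2.85 CPM in CaMKK2 KO mice (log2 fold change -5.38, adjusted p = 0.0093, edgeR). Olfml3 was at 113 ± 42.8 CPM and 23.7 ± 9.09 CPM (log2 fold change -2.26, adjusted p = 0.0204, edgeR), and its adjusted p was 0.0512 with WT mouse 2 left out and 0.0673 with CaMKK2 KO mouse 1 left out. For Slc2a5 the log2 fold change was -4.33 (adjusted p = 0.0824, edgeR), and DESeq2 called it.

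Few of the genes could be tested in other cells, and none passed in edgeR. In cMono-like cells 0 of 3 tested genes passed, against 1.84% of all genes, with Tmem119 at 22.4 ± 15.2 CPM in WT mice and at 11.5 ± 4.55 CPM in CaMKK2 KO mice (log2 fold change -1.34, adjusted p = 0.137, edgeR). In DC2-like cells, type 2 dendritic cells, 0 of 1 passed, against 1.47% of all genes. This was Cx3cr1, at 18.8 ± 8.30 CPM in WT mice and at 47.8 ± 26.5 CPM in CaMKK2 KO mice (log2 fold change 1.26, adjusted p = 0.166, edgeR). In NK-like cells 0 of 1 passed, against 3.09% of all genes, with Gpr34 at 23.3 ± 6.05 and 14.9 ± 6.18 CPM. In TIL-like cells 0 of 2 passed, against 0.516% of all genes, and Gpr34 stood at 18.0 ± 2.14 and 25.9 ± 11.2 CPM. An unadjusted p under 0.05 was reached by Tmem119 in cMono-like and Cx3cr1 in DC2-like cells, and DESeq2 called none of the genes in these classes. Over all genes it was reached by 961 of 6158 in cMono-like and 863 of 5237 in DC2-like cells.

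**Figure D5:**
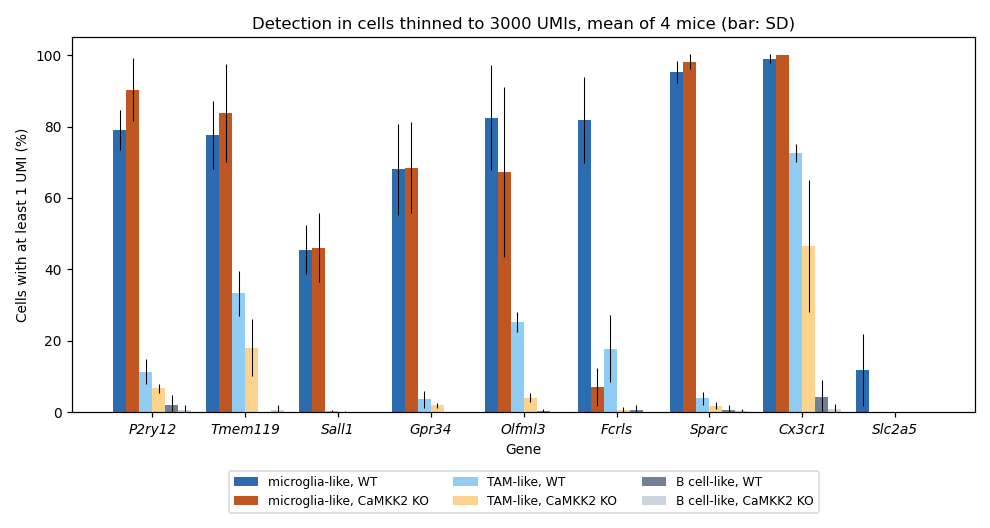
Share of cells with at least 1 UMI of each gene after thinning to 3000 UMIs per cell, as the mean of 4 mice with the SD as a bar, for microglia-like, TAM-like and B cell-like cells of each genotype. Fcrls is found in 81.8% of WT and 7.09% of CaMKK2 KO microglia-like cells, while Cx3cr1 is found in 99.0% and 100% of them.

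Further genes of the homeostatic program were read from lists in microglia-like cells, with edgeR calls. Over all 4688 genes tested there 813 had an unadjusted p under 0.05, edgeR called 67 and DESeq2 called 104. Of the 8 other genes of the study's microglia signature, among them Siglech, Crybb1 and P2ry13, 0 passed, 0 had an unadjusted p under 0.05 and DESeq2 called 0, with a median log2 fold change of 0.16. Of 14 further homeostatic genes, such as the complement chains C1qa to C1qc, 0 passed, 2 had an unadjusted p under 0.05 and DESeq2 called 0, with a median of -0.01. Of 15 tested TGF-beta receptors, SMAD proteins and transcription factors that maintain microglia, 0 passed, 2 had an unadjusted p under 0.05 and DESeq2 called 1 (Tgfbr1), with a median of 0.01. Tgfbr1 (log2 fold change 0.64, adjusted p = 0.118, edgeR) and Runx1 (-0.61, adjusted p = 0.0621, edgeR) lay farthest from 0 in that list.

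Of the study's 11 disease-associated microglia genes, which rise when microglia respond to damage, 2 fell and 0 rose, against 1.43% of all genes called, with a median of -0.06. An unadjusted p under 0.05 was reached by 4 of the 11, and DESeq2 called 3. Spp1, the secreted protein osteopontin, fell from 432 ± 349 CPM to 20.3 ± 27.4 CPM (log2 fold change -4.05, adjusted p = 0.00894, edgeR). Apoe, which carries lipids between cells, fell from 14299 ± 5818 CPM to 3166 ± 1712 CPM (log2 fold change -2.17, adjusted p = 0.00657, edgeR). Trem2, Tyrobp and Fth1 had log2 fold changes of 0.05, -0.06 and 0.10. The study may have chosen this list with these samples in view. Of the 2 tested border-associated macrophage markers Stab1, a scavenger receptor, fell from 248 ± 73.4 CPM to 118 ± 34.7 CPM (log2 fold change -1.08, adjusted p = 0.0431, edgeR). Apoe and Spp1 are also leading genes of the WT-rich TAM-like cluster, and their part from free RNA of those cells was not tested.

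In TAM-like cells the same lists gave 0 of 7 tested genes of the study's microglia signature, 0 of 15 TGF-beta receptors and transcription factors, and 1 of 13 further homeostatic genes. An unadjusted p under 0.05 was reached by 2, 3 and 9 of them, and DESeq2 called 2, 0 and 4. Over all 9572 genes tested in TAM-like cells 2417 had an unadjusted p under 0.05, edgeR called 317 and DESeq2 called 818. The gene that passed in edgeR was the lysosomal protease Ctsd, which fell from 1100.2 ± 62.8 CPM to 750 ± 62.9 CPM (log2 fold change -0.55, adjusted p = 0.0202, edgeR). Of the 11 disease-associated genes Apoe, Cd63 and Ctsb fell in TAM-like cells and 0 rose, against 3.31% of all genes called. An unadjusted p under 0.05 was reached by 6 of the 11, and DESeq2 called 5. Of the border-associated macrophage markers 0 of 5 tested passed, with 2 at an unadjusted p under 0.05 and 0 called by DESeq2. Their 9 genes summed to 1428 to 2658 CPM in WT mice and to 846 to 1213 CPM in CaMKK2 KO mice. Of 4 tested markers of non-immune cells 1 passed. This was Pecam1, an adhesion protein of endothelium that some leukocytes also carry, which rose (log2 fold change 1.61, adjusted p = 0.040, edgeR). Among the other markers tested the log2 fold change was 1.16 for Aldoc, -0.19 for Flt1 and -0.04 for Mbp, so 2 of the 4 rose and 2 fell. Of the 4 markers 2 had an unadjusted p under 0.05 in edgeR, and DESeq2 called 2. The part of border-associated macrophages and non-immune cells in the TAM-like values was not tested.

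Over the 82 sums per mouse and named class of at least 10 cells, genes whose log2(CPM + 10) closely resembled the mean of the 9 genes, out of 11266 other genes ranked, included Gas6 (r = 0.968), Scamp5 (0.959), Slco2b1 (0.957) and Ctsf (0.956). These are Pearson correlations over sums that share mice and libraries, given as a description. Gas6, a ligand of the receptor kinases Axl and Mertk, was at 189 ± 90.7 CPM in microglia-like and 8.88 ± 11.1 CPM in TAM-like cells, and Slco2b1 was among the markers that named the microglia-like cluster. Among the 9 genes themselves Olfml3 followed the mean most closely (r = 0.976) and Slc2a5 least (0.797).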

How the data were processed

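Single-cell RNA sequencing (10x Chromium 3' v3.1) had measured live CD45+ cells of 4 WT and 4 CaMKK2 KO mice. Per the labels, the authors demultiplexed the reads with bcl2fastq 2.20 and made the deposited UMI counts with Cell Ranger 4.0.0 and STAR 2.7.5c on mm10, without normalization. Each barcode was tied to a mouse by its hashtag counts (HTODemux of Seurat 5.3.0, quantile 0.99), and this left out 667 WT and 508 CaMKK2 KO doublets and 48 and 67 negative barcodes. Cells with fewer than 200 genes and cells more than 3 median absolute deviations away in gene number, UMI total or mitochondrial share were removed with scuttle 1.12.0. The cells with the highest Scrublet scores (scanpy 1.11.5), 175 WT and 135 CaMKK2 KO, were removed as well.

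Cells were clustered on SCTransform values (sctransform 0.4.2) of 3000 variable genes less the 9 genes, 30 principal components and a resolution of 0.5. A cluster was named when at least 2 markers of 1 type were among its 10 leading genes, a limit set after the data were seen. For each mouse the UMIs of a class were added up. Genes reaching 200 UMIs over the class entered edgeR 4.0.16 (quasi-likelihood test), with the class total as library size. In data simulated from the microglia-like sums, with 200 of 4688 genes changed, the test found 74% of 2-fold and 100% of 4-fold changes, and 5.95% of its calls were false. For the 9572 genes of TAM-like cells the figures were 79%, 96% and 5.41%. Alternatives were TMM, DESeq2 1.42.0, limma 3.58.1 on log2(mean CPM + 1), filters of 50, 1 and 500 UMIs, each mouse left out, outlying or high-scoring cells kept, the 9 genes kept for clustering, a resolution of 1.0, a marker gate and subtraction of the B cell-like level. Adding the unnamed cluster to TAM-like cells was chosen after seeing the data. The 3' counts of 1 UMI per molecule were not scaled by gene length, and levels of different genes were not compared. The 9 genes and all lists were chosen with earlier results of these data known. Named were all 9 genes, list genes past the threshold in microglia-like cells, Camkk2 and genes among the 5 of the most similar pattern. Some items that this rule would name are not reported here. Other genes named were chosen after their values were seen.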

Additional observations from a re-analysis of the deposited data

Results flagged for a closer look

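Sparc was flagged in 2 places because 1 of 4 mice lay far from the other 3. In microglia-like cells WT mouse 1 was at 1221 CPM, with the other WT mice at 2264 to 2435 CPM. In TAM-like cells CaMKK2 KO mouse 3 was at 13.9 CPM, with the other CaMKK2 KO mice at 6.94 to 7.37 CPM. Of the groups of 4 mice examined, 56 in all, chance alone would flag about 1 in 20.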

How the results depend on the processing

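In microglia-like cells 2 of the 9 genes passed, and the number was 1 with DESeq2, with a filter of 500 UMIs (which leaves out Slc2a5) and with the marker gate, and 0 with the B cell-like level subtracted. It was 1 to 3 with a mouse left out. In TAM-like cells it was 1 in place of 2 with the B cell-like level subtracted and 2 to 4 with a mouse left out. Over all cells it was 1 to 2 with a mouse left out. For the difference between both classes it was 4 with DESeq2, 5 with no filter on low counts and 0 to 4 with a mouse left out, in place of 0. In the other classes together it was 6 with no filter, 1 with outlying cells kept, 1 at a resolution of 1.0 and 0 to 2 with a mouse left out, in place of 0. Over all genes with no filter, 355 of 15221 passed in cMono-like and 354 of 14654 in DC2-like cells. For NK-like, TIL-like and B cell-like cells it was 701 of 15444, 213 of 16600 and 241 of 12576. With outlying cells kept it was 104, 68, 392, 154 and 37 in this order. At a resolution of 1.0 it was 112, 77, 207, 143 and 33, against 113, 77, 209, 38 and 33 in the main fits. With a mouse left out it ran from 35 to 251, 30 to 428, 88 to 773, 22 to 56 and 0 to 125. The cause of these changes was not tested beyond the filters and gates themselves. The difference in the share of microglia-like cells ran from -6.09 to -1.52 percentage points with a mouse left out.

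Log2 fold changes near 0 changed sign in microglia-like cells. Sparc was 0.07 with TMM, 0.06 with DESeq2, 0.02 with high-scoring cells kept and 0.31 with the marker gate, and -0.23 to 0.14 with a mouse left out. Cx3cr1 was 0.04 with TMM, 0.03 with DESeq2 and 0.01 with the marker gate, and -0.15 to 0.04 with a mouse left out. With outlying cells kept Sall1 was -0.05 and Gpr34 -0.13, and Gpr34 was -0.11 to 0.31 with a mouse left out. Cx3cr1 in cMono-like cells was -0.05 with outlying cells kept and -0.15 to 0.22 with a mouse left out, and in TIL-like cells 0.09 with the B cell-like level subtracted. Of all values of single genes under alternatives, 643 kept direction and call, 21 changed sign, 27 passed newly and 8 no longer passed. No paired analysis was possible because a hashtag number only names a mouse within its own pool. Over all genes, 67 passed in microglia-like cells, against 104 with DESeq2, 125 and 452 with filters of 50 and 1 UMIs, 133 with outlying cells kept, 8 with the B cell-like level subtracted and 40 to 123 with a mouse left out. In TAM-like cells 317 passed, against 818 with DESeq2, 582 with no filter, 15 with the B cell-like level subtracted and 100 to 586 with a mouse left out. Over all cells it was 176, and 641 with DESeq2. For the difference between both classes 10 of all genes passed, against 55 with DESeq2, 311 with no filter and 5 to 73 with a mouse left out. The microglia-like cells of a CaMKK2 KO mouse held at most 51 cells, so that a 2-fold change of a gene at low counts could be missed.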
